A study of Arabidopsis thaliana with 12 samples.

Results

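The double mutant ka120 ndr1 of Arabidopsis thaliana was set against wild type Col-0 across all genes, with 3 libraries of rosette leaf RNA from each genotype, out of 12 libraries in the series. All libraries of these genotypes entered by label, and the question was which transcript differences of a ka120 plant are present when NDR1 is not functional. The double mutant carried the ka120 and ndr1 mutations in the Col-0 ecotype; the single mutant ka120, in the same ecotype, served as a second point of comparison, and the wild type Col-0 carried neither mutation. The remaining genotype, ka120 pad4, entered the shared model and is in none of the tests, though its levels are given for some genes. Plants were 3 weeks old, were grown on soil at 22 °C under days of 16 h light followed by 8 h dark, and received no treatment. The sources name no alleles, and a single ndr1 mutant is not analysed here, so what the ndr1 mutation does by itself cannot be told apart from what it does in a ka120 plant. The labels leave unsaid how plants were divided among the libraries of a genotype; the spread that the p-values use is therefore that of the libraries, which may be technical.

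KA120 is a nuclear transport receptor of the importin-beta family, a class of proteins that carry cargo through nuclear pores. NDR1 is a protein of the plasma membrane that several coiled-coil NLR receptors, among them RPM1 and RPS2, need in order to trigger resistance. NLR receptors recognise pathogen effectors inside the cell; those with a TIR domain act through EDS1, PAD4 and SAG101 and through the helper NLRs of the ADR1 and NRG1 families. The hormone salicylic acid (SA) lies downstream of both routes and raises the transcripts of pathogenesis-related (PR) proteins.

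Total counts per library ran from 68436911 to 81727498 in ka120 ndr1, from 78305746 to 85884840 in ka120 and from 70386729 to 80707416 in Col-0. On the first principal component (54.5% of the variance) the ka120 ndr1 libraries stood at 26.4, 43.1 and 33.3, the ka120 libraries at 70.9, 75.2 and 51.3, and the Col-0 libraries between -116 and -112. Levels are given as CPM, the usual depth-scaled count, here relative to the effective library size, and changes as log2 fold changes with an approximate standard error, from edgeR's quasi-likelihood test fitted to all 12 libraries. A gene was called changed at a Benjamini-Hochberg adjusted p under 0.05. Markers of leaf mesophyll were abundant in every library, with summed levels of 28980 to 30320 CPM in ka120 ndr1 and 45100 to 47160 CPM in Col-0 over 3 genes. The seed marker CRU3 was at 0 in ka120 ndr1, ka120 and Col-0. Floral identity genes summed to 13.3 to 16.6 CPM in ka120 ndr1 and 8.37 to 9.59 CPM in Col-0 over 8 genes. In whole leaves, fewer cells of a type and less RNA per cell cannot be told apart.

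The mutated loci were read first. KA120, taken as AT3G08960 from background knowledge because the reference gives this locus no symbol (chromosome 3, 2729743 to 2737356 in TAIR10.1), had 4.57, 5.43 and 5.03 CPM in ka120 ndr1, against 24.2, 33 and 30.4 CPM in Col-0. No library of the mutant reached the lowest Col-0 library, and the transcript fell by 2.54 ± 0.15 on the log2 scale (adjusted p = 1.52e-07). NDR1 (AT3G20600, chromosome 3, 7194771 to 7195769) had 0, 12 and 8 counts in ka120 ndr1, against 346, 320 and 338 counts in Col-0, a log2 fold change of -5.95 ± 0.44 (adjusted p = 7.17e-07). In ka120, where NDR1 is not mutated, its transcript stood at 13.4, 14.4 and 11.5 CPM, above each of the Col-0 libraries with 5.63, 5.39 and 4.79 CPM. PAD4, which is not mutated in this double mutant, had 42.4, 64.4 and 42.2 CPM in ka120 ndr1, against 5.26, 4.6 and 5.54 CPM in Col-0 (log2 fold change 3.27 ± 0.34, adjusted p = 8.61e-06).

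Of 22351 tested genes, 10822 were called changed between ka120 ndr1 and Col-0, which is 48.4% of them. The calls comprised 5568 genes higher in ka120 ndr1 (24.9%) and 5254 lower (23.5%), and at least 2-fold changes were called for 1834 higher (8.21%) and 1283 lower genes (5.74%). With total counts as library sizes and no scaling factor, the split was 10128 higher and 2678 lower, and the median of all genes moved by 0.285 on the log2 scale, so changes of small size below are relative to the TMM scaling. The median log2 fold change over all tested genes was 0.02, with the 5th percentile at -1.26 and the 95th at 2.03. For 30% of tested genes every ka120 ndr1 library lay above every Col-0 library, and for 28.5% every one lay below. Against the same Col-0 libraries, the single mutant ka120 had 12276 called genes (54.9%), of which 6252 were higher (28%) and 6024 lower (27%), with 2400 higher (10.7%) and 1660 lower (7.43%) by at least 2-fold. Both comparisons share the Col-0 libraries, so their counts are given side by side and not as an overlap.

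**Figure D1:**
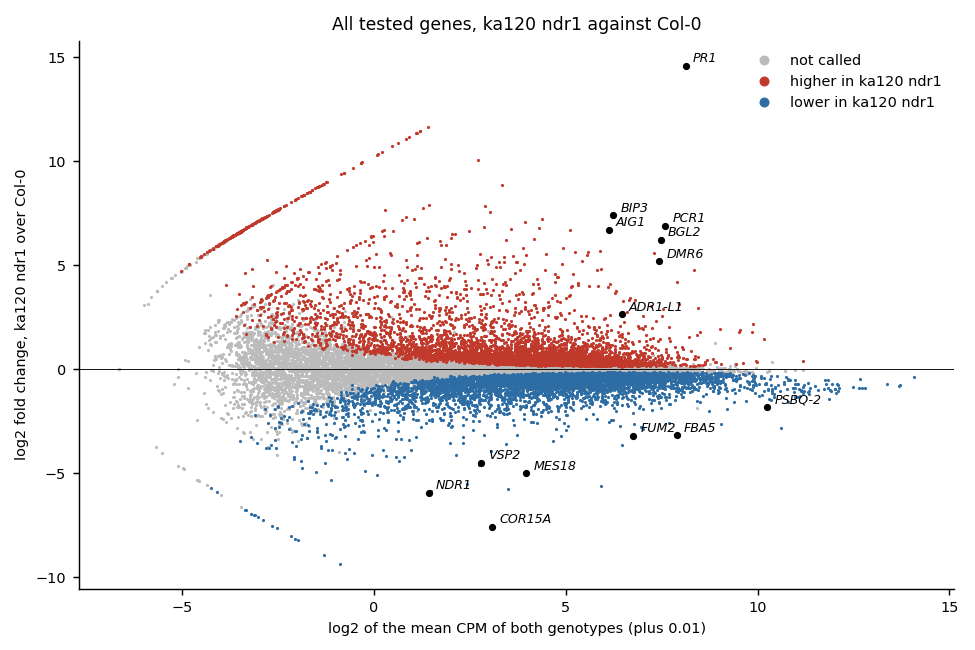
Each point is 1 of 22351 tested genes, with the log2 of its mean CPM over ka120 ndr1 and Col-0 (plus 0.01) on the horizontal axis and the log2 fold change of ka120 ndr1 over Col-0 on the vertical axis; coloured points were called at an adjusted p under 0.05. PR1 stands highest among the labelled genes at 14.6 and COR15A lowest at -7.57, and the straight lines of points at low levels are genes at or near 0 in one genotype.

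Among called genes with a symbol whose libraries did not overlap and whose higher genotype averaged 5 CPM or more, the largest rises in ka120 ndr1 included PR1, MDHAR and BIP3 as the first 3 in order, and BGL2, PCR1 and AIG1 further down. PR1, a secreted protein that serves as the standard marker of SA signalling, had 521, 685 and 472 CPM in ka120 ndr1, against 0, 0.0674 and 0 CPM in Col-0, where its reads amounted to 4 counts in 1 library. The log2 fold change of 14.6 ± 0.78 (adjusted p = 9.71e-08) therefore rests on a wild type level near 0. BGL2, the beta-glucanase also called PR2, had 324, 416 and 311 CPM in ka120 ndr1, against 5.27, 4.43 and 4.22 CPM in Col-0 (log2 fold change 6.24 ± 0.39, adjusted p = 2.48e-07). PCR1, a small membrane protein linked to cadmium resistance, had 316, 489 and 340 CPM in ka120 ndr1, against 1.73, 3.39 and 4.54 CPM in Col-0 (6.88 ± 0.54, adjusted p = 1.19e-06). AIG1, named for its induction by the bacterial effector AvrRpt2, had 134, 150 and 131 CPM in ka120 ndr1, against 0.553, 2.24 and 1.16 CPM in Col-0 (6.72 ± 0.56, adjusted p = 1.69e-06). No overlap between the libraries of the genotypes was a condition for naming these genes.

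The upstream window of BGL2 is shown because its transcript is a widely used SA marker and was among the largest rises. It covers the 300 bases before the annotated gene start, read from the RefSeq TAIR10.1 assembly on the minus strand (chr3:21189968-21190267). Capitals mark matches to TTGAC, the core of the W box bound by WRKY factors, and to TGACG, the core bound by TGA factors, on either strand.
BGL2: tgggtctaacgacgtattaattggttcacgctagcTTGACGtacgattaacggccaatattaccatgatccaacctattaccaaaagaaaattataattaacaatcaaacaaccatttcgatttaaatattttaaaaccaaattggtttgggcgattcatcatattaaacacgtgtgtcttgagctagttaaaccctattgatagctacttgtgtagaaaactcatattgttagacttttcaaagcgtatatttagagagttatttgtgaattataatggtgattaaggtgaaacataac
It held a TTGAC and a TGACG that overlap, 265 to 260 bases before the start. TTGAC or its complement occurred in 50.4% of the windows of all 27443 protein-coding genes, in 61.26% of the 1652 windows of genes at least 2-fold higher in ka120 ndr1, and in 47.93% of the 1210 windows of genes at least 2-fold lower. For TGACG the shares were 21.29%, 25.48% and 22.23%. These matches describe letters in a window and no binding was measured.

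The remaining large rises covered several functions. MDHAR, which regenerates ascorbate, had 12.1, 14.4 and 18 CPM in ka120 ndr1, against 0.13, 0 and 0.0567 CPM in Col-0 (log2 fold change 7.85 ± 0.48). RLP39, a receptor-like protein, had 19.5, 30.3 and 20.3 CPM in ka120 ndr1, against 0.0651, 0.337 and 0.255 CPM in Col-0 (6.72 ± 0.45). CRK7, a cysteine-rich receptor-like kinase, had 18.9, 26.5 and 19.2 CPM in ka120 ndr1, against 0.0651, 0.202 and 0.567 CPM in Col-0 (6.21 ± 0.48). These 3 genes were thus nearly silent in wild type leaves and measured in every mutant library. The NAC transcription factor genes NAC042 and NAC085 averaged 8.1 ± 2.23 and 7.9 ± 0.671 CPM in ka120 ndr1, against 0.0859 ± 0.0744 and 0.0996 ± 0.0935 CPM in Col-0 (SD, n = 3). cwINV6, an enzyme of the cell wall invertase family, averaged 11.1 ± 2.73 CPM in ka120 ndr1 and 0.11 ± 0.135 CPM in Col-0, and EDA36 averaged 5.14 ± 1.19 CPM in ka120 ndr1 and 0.0674 ± 0.117 CPM in Col-0 (SD, n = 3). Of the 12 largest rises regardless of naming, 8 had no symbol in the reference.

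**Figure D2:**
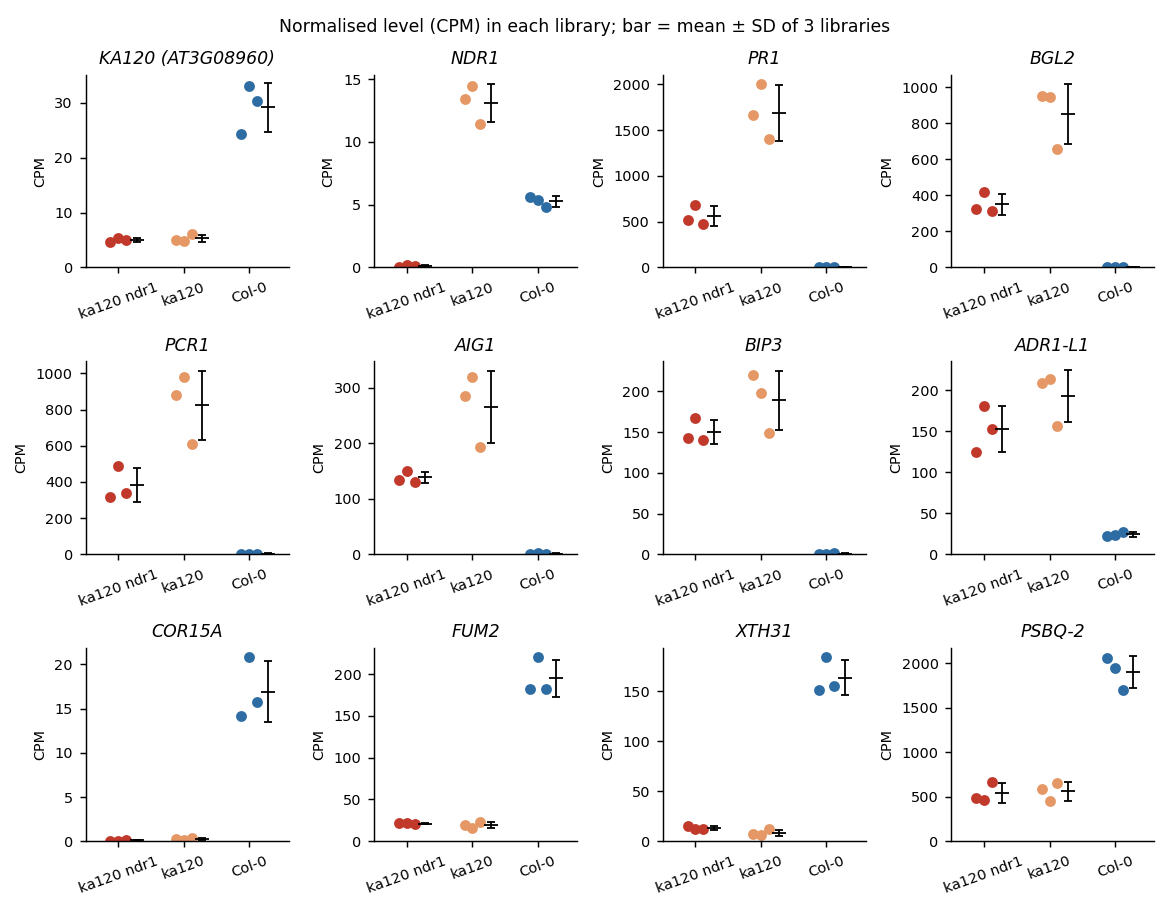
CPM of 12 genes in each library of ka120 ndr1, ka120 and Col-0 (points), with the mean and SD of 3 libraries as a bar, each panel on its own linear axis from 0. PR1, BGL2, PCR1 and AIG1 lie between the single mutant and wild type in ka120 ndr1, while FUM2, COR15A and XTH31 lie near the bottom of the axis in both mutants.

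Genes of SA synthesis and signalling stood high. Of 20 list members, all tested, 16 were called higher and 1 lower, with a median log2 fold change of 2.52, against 0.02 over all genes; the single mutant had 16 higher and 1 lower against the same wild type libraries, with a median of 3.53. EDS16, the isochorismate synthase that makes the SA precursor, averaged 79.3 ± 18 CPM in ka120 ndr1 and 13.3 ± 0.427 CPM in Col-0 (SD, n = 3; log2 fold change 2.58, adjusted p = 2.64e-05). SARD1 and CBP60G, transcription factors that switch on SA synthesis, rose by 4.14 and 3.95 on the log2 scale. DMR6, an SA hydroxylase, had 253, 420 and 340 CPM in ka120 ndr1, against 7.89, 11.1 and 8.68 CPM in Col-0 (5.20 ± 0.32, adjusted p = 2.14e-07). The SA glucosyltransferase gene UGT76B1 had 0 counts in every Col-0 library and 30, 82 and 20 counts in ka120 ndr1, at least 12.2-fold higher when the wild type is set at 3 counts per library. The receptors NPR1, NPR3 and NPR4 rose by 1.15, 1.12 and 0.85 on the log2 scale. EPS1, an enzyme of the last step of SA synthesis, was the only called decrease (log2 fold change -0.36, adjusted p = 0.046); the list held no called decrease when any single library other than Col-0 replicate 1 was left out, nor with reference gene scaling, with total counts or with no filter on low counts.

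PR genes and other SA markers followed the same direction. Of 13 members, all tested, 12 were called higher, with a median log2 fold change of 4.96, or 4.20 with the genes at 0 in Col-0 set to their bound; the single mutant had 13 higher with a median of 6.10. PR5, a thaumatin-like protein, averaged 452 ± 73.8 CPM in ka120 ndr1 and 24.6 ± 3.33 CPM in Col-0 (SD, n = 3; log2 fold change 4.20, adjusted p = 3.48e-07). PNP-A, a secreted natriuretic peptide, rose by 5.84 and WRKY54 by 3.63 on the log2 scale. WRKY38 had 0 counts in all Col-0 libraries and 128, 399 and 111 counts in ka120 ndr1, at least 58.8-fold higher on the same floor of 3 counts per library. HCHIB, the basic chitinase PR3, averaged 1.32 CPM in ka120 ndr1 and 0.979 CPM in Col-0 and did not pass the test (adjusted p = 0.271). The summed level of the list ran from 1558 to 2100 CPM in ka120 ndr1 and from 69.9 to 77.2 CPM in Col-0.

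NLR receptor genes, whose products detect effectors, rose in smaller steps. Over all tested genes, 24.9% were called higher and 23.5% lower. The counts of every list against Col-0, here and below, stand against these shares. Of 24 TIR-type NLRs, 16 were called higher and 1 lower, with a median log2 fold change of 0.55; SNC1 averaged 254 ± 18.6 CPM in ka120 ndr1 and 176 ± 10.4 CPM in Col-0 (SD, n = 3; 0.53, adjusted p = 0.000695). RPP4 and RPP5, neighbours of SNC1 in the same gene cluster, gave log2 fold changes of 0.02 and -0.20 without passing the test, and reads of these near-identical genes may be split between them. AT5G41750 stood apart with 52.5, 91.1 and 66.9 CPM in ka120 ndr1, against 2.85, 2.93 and 2.94 CPM in Col-0 (4.59 ± 0.32, adjusted p = 5.16e-07). TAO1 was the lower one, at 19 CPM on average in ka120 ndr1 and 32.1 CPM in Col-0. RLM1, a receptor for blackleg disease, had 0.117, 0.277 and 0.815 CPM in ka120 ndr1, against 0.146, 0.0674 and 0.113 CPM in Col-0; the groups overlapped, and its call (1.87 ± 0.67, adjusted p = 0.0364) was lost without ka120 ndr1 replicate 3 (adjusted p = 0.309), without any of the Col-0 libraries, and in a pair of other fits; over all other fits the adjusted p ran from 0.00858 to 0.309.

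The coiled-coil NLRs are the class with members that work through NDR1. Of 10 members, 8 were called higher in ka120 ndr1, with a median of 0.72; in the single mutant 8 were higher, with a median of 0.86. RPS2, which guards RIN4 and depends on NDR1, had 20.4, 22.3 and 21.9 CPM in ka120 ndr1, against 5.7, 7.01 and 6.65 CPM in Col-0 (1.74 ± 0.14, adjusted p = 1.52e-06). RPM1, the other RIN4 guard, averaged 16.8 CPM in ka120 ndr1 and 11.2 CPM in Col-0 (0.59, adjusted p = 0.000175). ZAR1, which forms a channel upon activation, had 170, 238 and 206 CPM in ka120 ndr1, against 63.2, 64.9 and 70 CPM in Col-0 (1.63 ± 0.17). All mutant libraries of RPS2 and ZAR1 exceeded all wild type libraries, which also held for 30% of all tested genes.

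Helper NLRs rose more. All 5 were called higher, with a median of 1.84, against 2.29 in the single mutant. ADR1-L1 had 124, 180 and 153 CPM in ka120 ndr1, against 22.2, 23.1 and 27.7 CPM in Col-0 (2.65 ± 0.19, adjusted p = 6.71e-07). ADR1-L2 had 96.7, 126 and 99.2 CPM in ka120 ndr1, against 20.8, 18.6 and 20.4 CPM in Col-0 (2.43 ± 0.14). ADR1 rose by 1.84 ± 0.10 on the log2 scale.

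Of 10 genes that are partners of NDR1 or members of the NDR1/HIN1-like family, 8 were tested and 6 were called higher, with a median of 0.65. RIN4, the NDR1-binding target of several effectors, averaged 32 CPM in ka120 ndr1 and 28.2 CPM in Col-0 and did not pass the test (0.18, adjusted p = 0.275). NHL3 averaged 106 CPM in ka120 ndr1 and 61.4 CPM in Col-0 (0.79, adjusted p = 0.00292). AT1G65690 had 2.4, 2.47 and 3.33 CPM in ka120 ndr1, against 0.326, 0.287 and 0.312 CPM in Col-0 (3.14 ± 0.48), and AT2G27080 had 5.81, 8.47 and 7.17 CPM in ka120 ndr1, against 1.07, 1.28 and 0.851 CPM in Col-0 (2.74 ± 0.36). YLS9 had 16, 66 and 60 counts in ka120 ndr1 and 0 counts in Col-0, at least 12.8-fold higher.

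Receptors and kinases at the cell surface were tested in a pair of lists. Of 22 genes of pattern-triggered immunity, 14 were called higher and 2 lower, with a median of 0.77; SOBIR1, a co-receptor of receptor-like proteins, had 203, 342 and 249 CPM in ka120 ndr1, against 31.7, 28.5 and 35.7 CPM in Col-0 (3.05 ± 0.28, adjusted p = 3.62e-06). The MAP kinase gene MPK11 rose by 4.05 ± 0.55 and the flagellin-induced kinase gene FRK1 by 3.83 ± 0.70, while RBOHD, the main oxidase of the immune burst, averaged 48.5 CPM in ka120 ndr1 and 48.9 CPM in Col-0 (-0.01, adjusted p = 0.912). Among 13 cysteine-rich receptor-like kinases, 9 were called higher, with a median of 2.65. CRK6 had 65.1, 113 and 71.4 CPM in ka120 ndr1, against 2.02, 1.69 and 2.98 CPM in Col-0 (5.21 ± 0.42, adjusted p = 1.29e-06). ARCK1 and CRK14 rose by 4.43 ± 0.53 and 4.08 ± 0.35 on the log2 scale.

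For pipecolic acid and systemic resistance, 6 of 6 genes were called higher, with a median of 4.99. ALD1 and FMO1, enzymes that make N-hydroxypipecolic acid, stayed at low levels: FMO1 had 1.8, 3.38 and 1.85 CPM in ka120 ndr1, against 0, 0 and 0.0709 CPM in Col-0 (6.41 ± 0.92, adjusted p = 0.000114). EARLI1 had 4.56, 2.72 and 6.09 CPM in ka120 ndr1, against 0.195, 0 and 0 CPM in Col-0 (6.11 ± 0.73). Of 15 genes that hold back immunity and cell death, 12 were called higher and 1 lower, with a median of 0.42. BON3 and BAP1, which repress cell death, rose by 4.95 ± 0.34 and 4.36 ± 0.62, and BON2 was lower at -0.31 (adjusted p = 0.000771), and the list held no called decrease with total counts.

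Genes of protein folding in the endoplasmic reticulum (ER), which prepares secreted and membrane proteins, were higher in ka120 ndr1. Of 21 list members, 20 were called higher and 1 lower, with a median log2 fold change of 1.68, against 2.21 in the single mutant. BIP3, an inducible ER chaperone of the HSP70 class, had 143, 167 and 140 CPM in ka120 ndr1, against 0.83, 0.691 and 1.12 CPM in Col-0 (7.40 ± 0.51, adjusted p = 4.55e-07). SHD, the ER HSP90, averaged 1169 CPM in ka120 ndr1 and 311 CPM in Col-0 (1.91, adjusted p = 9.21e-06). ERO1, an ER thiol oxidase, had 18.6, 27.1 and 17.2 CPM in ka120 ndr1, against 2.57, 1.82 and 2.13 CPM in Col-0 (3.27 ± 0.37, adjusted p = 1.88e-05). BZIP60, a transcription factor of the unfolded protein response, rose by 1.32. EBS1, the glucosyltransferase that checks glycoprotein folding, was lower at -0.23 (adjusted p = 0.0233), and the list held no called decrease when any of the 6 libraries was left out, or with total counts.

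Factors of the unfolded protein response are known to read TGACGTG. Of the 300-base windows before the gene starts of this list, 5 of 21 (23.81%) held it on either strand, against 3.159% of all windows; the share was 36.36% in the clock list, 23.08% among cysteine-rich receptor-like kinases and 17.14% in photosynthesis. TGACG alone, which every TGACGTG contains, was present in 42.86% of the windows of this list. A spaced pattern of CCAAT and CCACG was in 0 of 21 windows of this list and in 7 of all 27443.

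Genes of photosynthesis fell as a block. All 35 list members were tested and called lower, with log2 fold changes between -1.81 and -0.39 and a median of -0.92, against -1.13 in the single mutant; with total counts 34 were called lower and the median was -0.63. Together they took 9.71% to 10.2% of the counts in ka120 ndr1 and 14.4% to 15.2% in Col-0. PSBQ-2, a subunit of the oxygen-evolving complex, had 488, 468 and 669 CPM in ka120 ndr1, against 2062, 1945 and 1705 CPM in Col-0 (-1.81 ± 0.15, adjusted p = 1.97e-06). LHCB2.3, a light-harvesting protein of photosystem II, had 781, 497 and 726 CPM in ka120 ndr1, against 1686, 2008 and 1802 CPM in Col-0 (-1.46 ± 0.21, adjusted p = 0.000124). PSAN, a subunit of photosystem I, had 1156, 1103 and 1158 CPM in ka120 ndr1, against 2808, 3155 and 2643 CPM in Col-0 (-1.33 ± 0.07, adjusted p = 1.15e-07). RBCS1A, a small subunit of Rubisco, changed least (-0.39 ± 0.07, adjusted p = 0.000861) and did not pass the test with total counts (-0.11, adjusted p = 0.151; other fits kept its call); reads of the RBCS copies may be shared. Of the vascular markers, SUC2 fell by 0.85, APL by 0.94 and IRX3 by 0.60, their summed level being 147 to 159 CPM in ka120 ndr1 and 260 to 301 CPM in Col-0, and the part of cell composition in these results was not tested. IRX3 and APL did not pass with total counts (adjusted p = 0.0521 and 0.073), and APL also failed without Col-0 replicate 2 or ka120 ndr1 replicate 1 or 2.

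**Figure D3:**
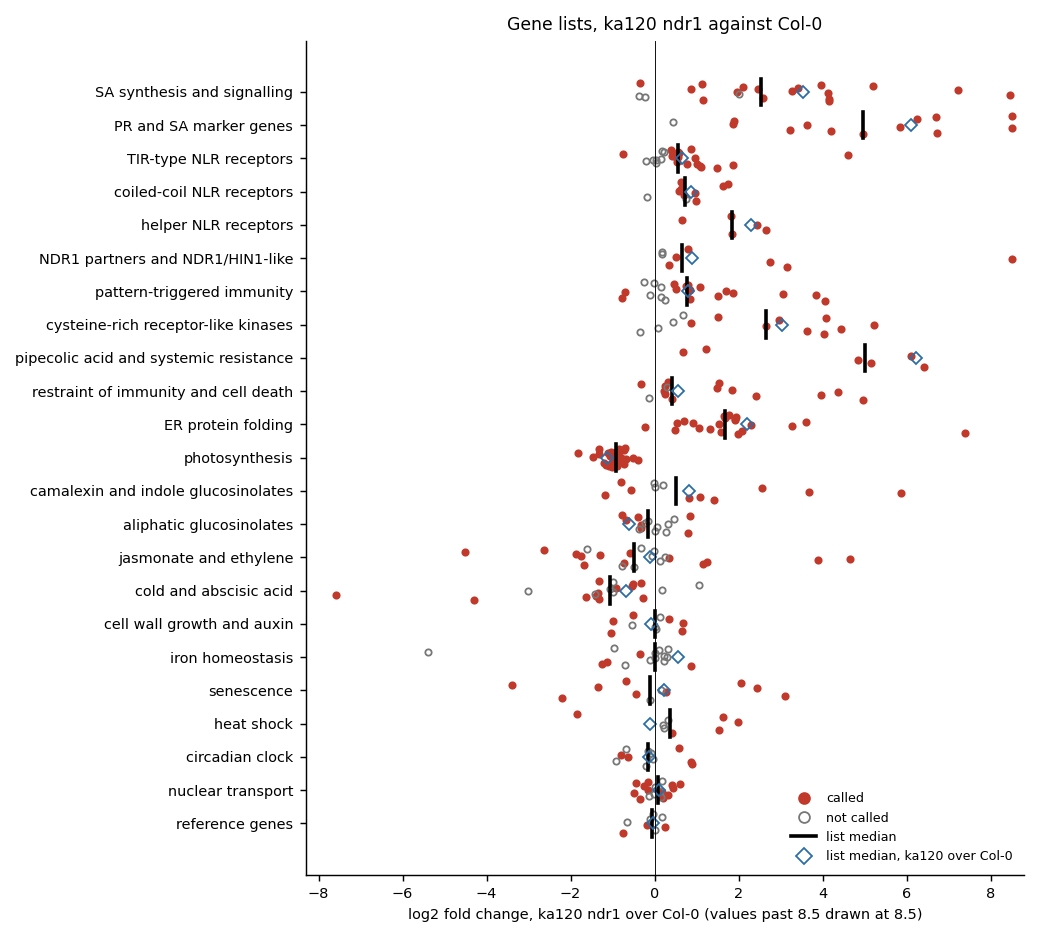
Log2 fold change of ka120 ndr1 over Col-0 for each tested member of 23 gene lists, with filled points called at an adjusted p under 0.05, a bar at the list median and a diamond at the list median of ka120 over Col-0. The medians of the immune and ER folding lists lie right of 0 and those of photosynthesis and of cold and abscisic acid lie left of it in both mutants.

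Among named genes, the largest falls outside photosynthesis included cold, carbon and wall genes. COR15A, a cold-regulated protein that protects chloroplast membranes, had 0, 0.0693 and 0.192 CPM in ka120 ndr1, against 14.2, 20.8 and 15.8 CPM in Col-0 (-7.57 ± 0.56, adjusted p = 7.49e-07). FUM2, the cytosolic fumarase, had 21.3, 21.4 and 20.8 CPM in ka120 ndr1, against 182, 221 and 182 CPM in Col-0 (-3.20 ± 0.21, adjusted p = 2.99e-07). FBA5, an aldolase, had 51.4, 41.3 and 48.6 CPM in ka120 ndr1, against 410, 467 and 408 CPM in Col-0 (-3.19 ± 0.19). XTH31, an enzyme that remodels xyloglucan in the wall, had 15.3, 12.6 and 11.7 CPM in ka120 ndr1, against 151, 184 and 155 CPM in Col-0 (-3.63 ± 0.30, adjusted p = 1.63e-06). No overlap between the libraries of the genotypes was a condition for naming these falls too. CIPK20, a kinase regulated by calcium sensors, averaged 5.77 ± 1.28 CPM in ka120 ndr1 and 52.9 ± 8.49 CPM in Col-0, and MES18, of the methylesterase family, averaged 0.932 ± 0.425 CPM in ka120 ndr1 and 30.3 ± 5.97 CPM in Col-0 (SD, n = 3). VSP2, UGT84A3, DR4 and CYP78A8 fell by 4.51, 3.59, 3.55 and 3.16 on the log2 scale. GT72B1, a glycosyltransferase, had 1.94, 2.45 and 2.89 CPM in ka120 ndr1, against 122, 117 and 114 CPM in Col-0 (-5.60 ± 1.47, adjusted p = 0.00737), but within ka120 the libraries had 73, 2.15 and 2.07 CPM, so this transcript also took both levels within a single genotype. Of the 12 largest falls regardless of naming, 5 had no symbol.

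Of 20 genes of cold and abscisic acid responses, 19 were tested; 12 were called lower, with a median of -1.05, and the single mutant had 9 lower and 2 higher with a median of -0.67. With total counts the double mutant had 9 lower and 2 higher, with a median of -0.77. COR47 and COR413-PM1, further cold-regulated genes, fell by 1.32 and 1.64, RAB18 by 1.32 and RD22 by 0.55 on the log2 scale. HAI2, a phosphatase that acts against abscisic acid signalling, had 0.0583, 0 and 0 CPM in ka120 ndr1, against 0.277, 0.742 and 0.284 CPM in Col-0 (-4.31 ± 1.03, adjusted p = 0.00411). DREB1A, a factor that activates cold genes, had 0, 0.0554 and 0 CPM in ka120 ndr1, against 0.195, 0.0674 and 0.184 CPM in Col-0, too few counts to pass the test (-3.01 ± 1.46, adjusted p = 0.108, and up to 0.265 over the alternatives, none of which called it).

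The COR15A window is shown because CCGAC is the core that DREB factors bind, and it appears in both orientations. The window covers chr2:17712331-17712630 on the minus strand in RefSeq TAIR10.1; capitals mark a reverse match 142 to 138 bases and a forward match 79 to 75 bases before the gene start.
COR15A: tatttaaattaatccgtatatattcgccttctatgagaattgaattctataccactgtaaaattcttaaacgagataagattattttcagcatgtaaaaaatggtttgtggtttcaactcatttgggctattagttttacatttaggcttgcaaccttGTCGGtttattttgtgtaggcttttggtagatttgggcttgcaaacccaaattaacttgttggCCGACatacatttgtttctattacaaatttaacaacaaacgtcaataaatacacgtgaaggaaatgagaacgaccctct
CCGAC occurred in 6 of 20 windows of this list (30%), in 13.9% of all windows, in 13.8% of those of genes at least 2-fold lower in ka120 ndr1 and in 13.14% of those of genes at least 2-fold higher.

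Genes of jasmonate and ethylene went in both directions, with 5 called higher and 8 lower of 21 tested among 22 members and a median of -0.49. The shares over all tested genes were 24.9% higher and 23.5% lower. VSP2, a storage protein that marks jasmonate responses, had 0.525, 0.624 and 0.587 CPM in ka120 ndr1, against 12.8, 18 and 8.89 CPM in Col-0 (-4.51 ± 0.43, adjusted p = 4.75e-06). AOS, an enzyme of jasmonate synthesis, averaged 30.3 CPM in ka120 ndr1 and 189 CPM in Col-0 (-2.64), and LOX2, which acts before it, averaged 97.2 CPM in ka120 ndr1, 222 CPM in ka120 and 238 CPM in Col-0 (-1.29 against Col-0, adjusted p = 0.00207). NATA1, an acetyltransferase of jasmonate-treated leaves, had 0.327, 0.596 and 1.17 CPM in ka120 ndr1, against 0, 0.0843 and 0 CPM in Col-0 (4.64 ± 0.99). The tyrosine aminotransferase gene TAT3 had 13, 20.7 and 8.83 CPM in ka120 ndr1, against 0.683, 1.21 and 0.993 CPM in Col-0 (3.88 ± 0.63).

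The camalexin and indole glucosinolate list had 6 genes called higher and 3 lower of 12 tested among 13 members. The shares over all tested genes were 24.9% higher and 23.5% lower, and the count of lower genes lies near its share. CYP71A12, which makes a camalexin precursor, had 0.875, 1.88 and 1.23 CPM in ka120 ndr1, against 0, 0.0674 and 0 CPM in Col-0 (5.87 ± 0.80, adjusted p = 8.05e-05), and its relative CYP71A13 rose by 3.68 ± 0.72. PAD3, the last enzyme of camalexin synthesis, had 1.07, 1.65 and 0.815 CPM in ka120 ndr1, against 0.358, 0 and 0.227 CPM in Col-0; its call was at the threshold (2.57 ± 1.00, adjusted p = 0.0497) and was lost without any single library and in 4 of the other fits, with adjusted p-values up to 0.135. Of 15 aliphatic glucosinolate genes, 2 were called higher and 5 lower, with a median of -0.16 that turned to 0.12 with total counts, where 6 were higher and 2 lower. The count of lower genes was 2 without Col-0 replicate 1, and 3 without Col-0 replicate 2, Col-0 replicate 3, ka120 ndr1 replicate 1 or ka120 ndr1 replicate 2. MYB28, the factor that drives this pathway, had 58.2, 53.3 and 60.2 CPM in ka120 ndr1, against 96.8, 94.9 and 104 CPM in Col-0 (-0.79 ± 0.08), whereas IMS2 had 24.9, 29.4 and 28.5 CPM in ka120 ndr1, against 18.9, 12.5 and 14.8 CPM in Col-0 (0.84 ± 0.16, adjusted p = 0.000965).

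Senescence genes had calls on both sides. Of 11 tested among 12 members, 4 were called higher and 5 lower, or 5 and 3 with total counts. Among all tested genes, 24.9% were called higher and 23.5% lower with TMM. SAG13 had 27.9, 30.3 and 38.9 CPM in ka120 ndr1, against 1.81, 7.37 and 2.23 CPM in Col-0 (3.10 ± 0.47, adjusted p = 0.000187), and the early regulator WRKY53 had 8.87, 15.6 and 9.64 CPM in ka120 ndr1, against 2.67, 1.45 and 2.18 CPM in Col-0 (2.43 ± 0.29). SAG29 and the factor NAP fell by 3.39 and 2.21, and SAG12, the classic marker of late senescence, had 0 counts in both genotypes. The median of the list was -0.10, and it turned to 0.18 with total counts.

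The lists of iron, wall, heat, clock and nuclear transport genes held calls in both directions. Of all tested genes 24.9% were called higher and 23.5% lower, and the wall, clock and nuclear transport counts lie near these shares. Of 15 iron genes, 1 was called higher and 3 lower (5 and 2 with total counts), and the nicotianamine synthase gene NAS4 had 12, 11 and 13 CPM in ka120 ndr1, against 25.9, 26.6 and 26.9 CPM in Col-0 (-1.14 ± 0.09, adjusted p = 8.40e-07). bHLH39, an activator of iron uptake, had 0 CPM in the ka120 ndr1 libraries and 0.0814, 0 and 0.113 CPM in Col-0; it missed the test (adjusted p = 0.0874) and was called lower only by DESeq2 (adjusted p = 0.00888) among the fits run. Of 10 wall and auxin genes, 3 were higher and 3 lower; the expansin gene EXPA5 fell by 0.99 ± 0.09 and the auxin-responsive IAA19 rose by 0.68 ± 0.15. Among 8 tested heat shock genes of 9, 4 were higher and 1 lower, with HSP90.1 at 29.3, 39.3 and 30.5 CPM in ka120 ndr1, against 9.41, 13.5 and 9.02 CPM in Col-0 (1.64 ± 0.15). Of 11 clock genes, 3 were higher, among them GI by 0.89 and ELF3 by 0.87, and 2 were lower. Of 18 nuclear transport genes, the family and machinery of KA120 itself, 6 were higher and 6 lower, with a median of 0.07; with total counts 12 were higher and 1 lower, and 3 were higher without Col-0 replicate 2 or without ka120 ndr1 replicate 3. The exportin gene XPO1A had 158, 166 and 149 CPM in ka120 ndr1, against 103, 104 and 106 CPM in Col-0 (0.60 ± 0.06, adjusted p = 5.16e-06), and the importin SAD2 had 66.4, 67.3 and 66.9 CPM in ka120 ndr1, against 90, 99 and 91.2 CPM in Col-0 (-0.48 ± 0.06).

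Of the genes often used as references, 1 of 8 was called higher and 2 lower, against 24.9% and 23.5% of all tested genes. With total counts 4 were higher and 1 lower, and without Col-0 replicate 2 the counts were 2 and 1. The count of lower genes was also 1 without ka120 ndr1 replicate 3 or with reference gene scaling. PP2AA3 had 40.1, 38.4 and 39.3 CPM in ka120 ndr1, against 61.4, 70.3 and 66.3 CPM in Col-0 (-0.75 ± 0.06, adjusted p = 1.17e-06), GAPC1 was higher by 0.24 ± 0.05 and ACT2 lower at -0.19. Floral identity genes were low in both genotypes, with 4 of 7 tested called higher, or 2 without Col-0 replicate 1 or without ka120 ndr1 replicate 2; AG had 2.3, 2.48 and 2.65 CPM in ka120 ndr1, against 0.456, 0.91 and 0.539 CPM in Col-0 (1.97 ± 0.26, adjusted p = 5.53e-05), and SEP2 averaged 0.496 CPM in ka120 ndr1 and 0.0569 CPM in Col-0. The meristem marker STM averaged 5.09 CPM in ka120 ndr1 and 4.14 CPM in Col-0 without passing the test (adjusted p = 0.184). Of 5 root markers 1 was called, WOX5, which stood at 0.42, 0.402 and 0.407 CPM in ka120 ndr1 and at 0.0651, 0 and 0 CPM in Col-0, and none was called with counts divided by 4, while 3 were higher with total counts. The other root markers lay between -1.61 (SHV2, adjusted p = 0.311) and 0.11 on the log2 scale. Of 5 guard cell genes OZS1 was called lower, of 3 epidermal genes KCS6 and of 2 trichome genes GL2, and none of these calls held with total counts (adjusted p = 0.286, 0.833 and 0.314, with KCS6 turning to 0.0193). OZS1 was also lost without Col-0 replicate 3, ka120 ndr1 replicate 1 or ka120 ndr1 replicate 2, and GL2 without Col-0 replicate 1.

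How the double mutant differed from the single mutant was read from the direct test of ka120 ndr1 against ka120. It called 1327 genes (5.94% of those tested), 715 higher (3.2%) and 612 lower (2.74%), of which 31 and 176 changed by at least 2-fold. These counts rested on single libraries: without ka120 ndr1 replicate 1 there were 90 higher and 121 lower, without ka120 ndr1 replicate 2, 209 and 250, without ka120 ndr1 replicate 3, 402 and 323, without ka120 replicate 1, 53 and 95, without ka120 replicate 2, 47 and 89, and without ka120 replicate 3, 1249 and 983. The share of calls that were higher was 53.88%, and 42.69% in a fit to the libraries of these genotypes alone and 41.19% with total counts. Of 22 genes called in this test and followed through the other settings, 4 were called under each of them, namely NDR1, cwINV6, CDEF1 and PYD4. The calls of PR5, NUDT6, PNP-A, EDS5, RPP1, NAP, LOX2 and HSFA2 below were not followed through those settings.

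Among PR and SA markers, 5 of 13 were called lower than in ka120, with a median of -1.04, against 0.00 over all genes. PR1 had 521, 685 and 472 CPM in ka120 ndr1, against 1666, 2005 and 1397 CPM in ka120 (-1.59 ± 0.38, adjusted p = 0.0328), and BGL2 had 324, 416 and 311 CPM in ka120 ndr1, against 952, 943 and 657 CPM in ka120 (-1.28, adjusted p = 0.0351). No ka120 ndr1 library reached the lowest ka120 library for either gene, which also held for 14.5% of all tested genes. Each was called in 10 of 15 other fits, with adjusted p-values up to 0.135 for PR1 and 0.138 for BGL2. PR5, NUDT6 and PNP-A were the others, at -1.04, -1.48 and -1.25. Levels were also below ka120 in ka120 pad4, which was not tested here, where PR1 averaged 371 CPM and BGL2 231 CPM. The summed level of the list ran from 834 to 2177 CPM there and from 3265 to 4850 CPM in ka120. Within SA synthesis only the SA transporter gene EDS5 was called, at -0.99, and the median of the list was -0.50. Of the TIR-type NLRs 1 of 24 was called, RPP1 at -0.29, where 2.74% of all tested genes were called lower. The medians of the TIR-type and coiled-coil lists were -0.17 and -0.13.

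Other lists showed direct calls on both sides, where 3.2% of all tested genes were called higher and 2.74% lower. Calls counted in this paragraph without a gene name were not followed through the other settings, nor were those of NAP, LOX2 and HSFA2. SAG13, TAT3 and IMS2 were each called in 10 of 15 other fits and NATA1 in 9. Their highest adjusted p-values were 0.11, 0.19, 0.154 and 0.161. Senescence had 5 lower of 11, led by SAG13 with 27.9, 30.3 and 38.9 CPM in ka120 ndr1, against 88.1, 160 and 130 CPM in ka120 (-1.96, adjusted p = 0.0258), and by NAP at -1.52. Jasmonate genes had 3 lower, TAT3 at -2.03, NATA1 at -2.45 and LOX2 at -1.19. Aliphatic glucosinolate genes had 5 higher of 15, with a median of 0.46, among them IMS2 at 0.67 (adjusted p = 0.0335). Photosynthesis had 3 of 35 higher, with a median of 0.21, and ER folding 2 of 21 lower, with a median of -0.43. HSFA2, a heat shock factor, was higher by 1.70.

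Genes with a symbol and large direct differences are given beside their wild type levels. CYP707A3, which breaks down abscisic acid, had 7.72, 9.88 and 8.16 CPM in ka120 ndr1, against 3.76, 3.68 and 3.41 CPM in ka120 and 3.25, 2.06 and 3.13 CPM in Col-0 (1.25 against ka120, adjusted p = 0.0166). CDEF1, a cutinase, had 36.7, 39.1 and 33 CPM in ka120 ndr1, against 18.1, 16.4 and 22.4 CPM in ka120 and 24.3, 18.1 and 25.2 CPM in Col-0 (0.93, adjusted p = 0.00642). Separation from the ka120 libraries and a call against Col-0 were conditions for choosing the genes of this paragraph. CYP707A3 and CDEF1 lay above Col-0 in every ka120 ndr1 library, which also held for 30% of all tested genes. CYP707A3 was as high in ka120 pad4, at 5.81, 9.63 and 12.5 CPM. RABA6b averaged 5.36 CPM in ka120 ndr1, 2.05 CPM in ka120 and 0.549 CPM in Col-0 (1.39 against ka120), and XTH15 averaged 8.12 CPM in ka120 ndr1, 3.44 CPM in ka120 and 2.01 CPM in Col-0 (1.24). PAP3, a purple acid phosphatase, had 16.8, 14.9 and 14.6 CPM in ka120 ndr1, against 7.01, 5.69 and 10.8 CPM in ka120 and 39.2, 41.2 and 37.9 CPM in Col-0, so it was higher than in ka120 (0.98) and lower than in Col-0 (-1.35). PYD4, an enzyme of pyrimidine breakdown, had 1.64, 0.443 and 1.37 CPM in ka120 ndr1, against 5.44, 6.29 and 5.87 CPM in ka120 and 0.0814, 0.135 and 0.156 CPM in Col-0 (-2.34 against ka120, adjusted p = 0.00586). cwINV6 had 8.12, 11.8 and 13.4 CPM in ka120 ndr1, against 33.9, 33.6 and 32.1 CPM in ka120 and 0.26, 0 and 0.0709 CPM in Col-0 (-1.58 against ka120, adjusted p = 0.00936). HIPP22, a metal-binding protein, had 1.18, 1.94 and 1.59 CPM in ka120 ndr1, against 7.06, 6.7 and 4.37 CPM in ka120 and 0.13, 0.607 and 0.0709 CPM in Col-0 (-1.95 against ka120, adjusted p = 0.0464). In ka120 pad4, which was not tested here, PAP3 averaged 20 CPM, cwINV6 12.2 CPM, HIPP22 0.285 CPM and PYD4 3.72 CPM. These too differed from ka120 in the direction seen in ka120 ndr1. RABA6b at 2.34 CPM, XTH15 at 2.5 CPM and CDEF1 at 20 CPM stayed nearer to ka120 there.

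**Figure D4:**
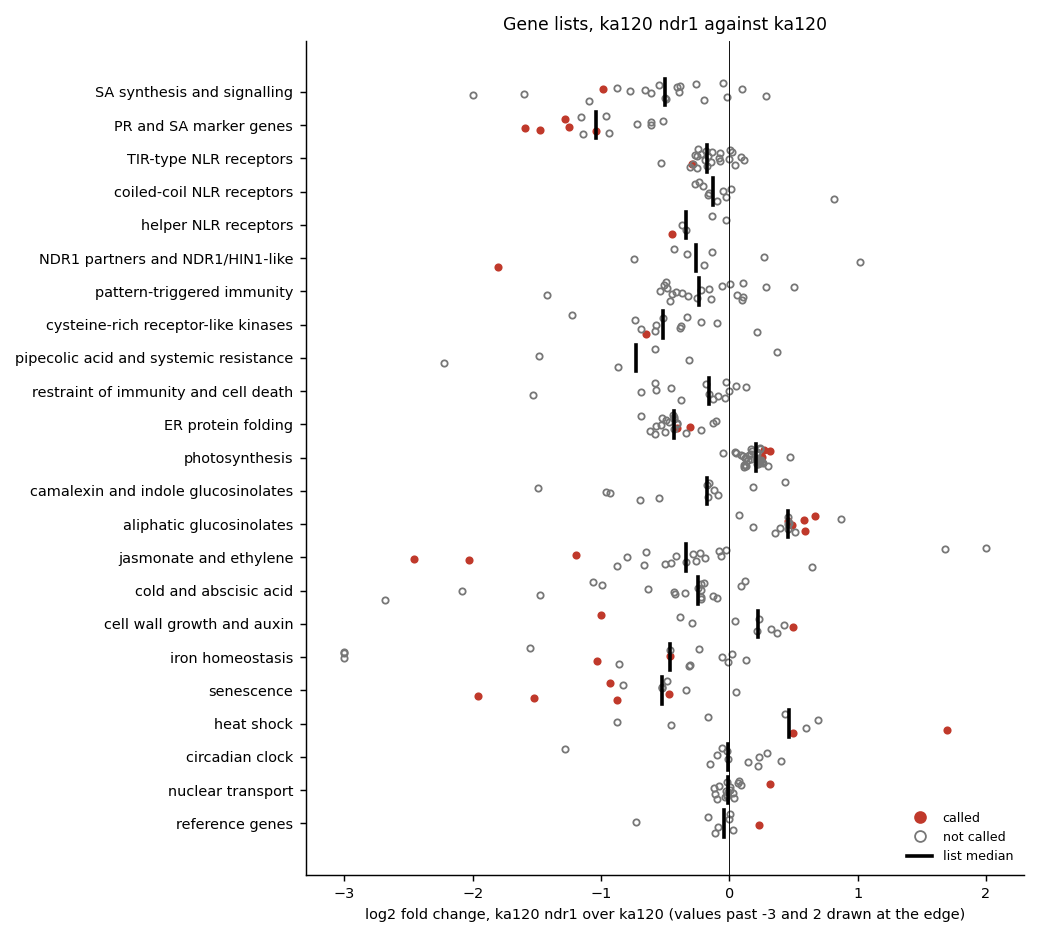
Log2 fold change of ka120 ndr1 over ka120 for each tested member of the same 23 lists, with filled points called at an adjusted p under 0.05 and a bar at the list median. The median of PR and SA markers lies at -1.04 and that of aliphatic glucosinolates at 0.46, while most members of the NLR lists lie near 0 and are open.

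Genes next to the mutated loci were read in order along chromosome 3. Of the 5 neighbours on each side of NDR1, 4 were not tested for lack of counts, among them AT3G20590 and AT3G20610 beside it, which had 0 counts in every library. Of the other 6, UBP14 was higher in ka120 ndr1 with 61.6, 57.9 and 61.3 CPM, against 36.5, 41.8 and 37.3 CPM in Col-0 (0.64 ± 0.08); PDIL5-3, ENODL9 and AT3G20640 were lower at -0.37, -0.71 and -1.11, and AT3G20620 and AT3G20650 were at -0.03 and 0.01. Their values in ka120 against the same wild type libraries were 0.72, -0.43, -1.03, -1.59, -0.03 and -0.07. Beside KA120, ATERDJ3A, an ER co-chaperone gene on the opposite strand, had 29.9, 37.2 and 30 CPM in ka120 ndr1, against 2.41, 2.83 and 2.77 CPM in Col-0 (3.60 ± 0.24, adjusted p = 3.63e-07). Its annotation overlaps that of KA120 by 60 bases, and whether the counting used strand is not stated, so a few reads may be shared. HCC1 on the other side was higher by 0.60 and LHCB4.2, 4 genes away, lower at -0.90. AT3G09010, 5 genes away, was higher by 2.13.

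**Figure D5:**
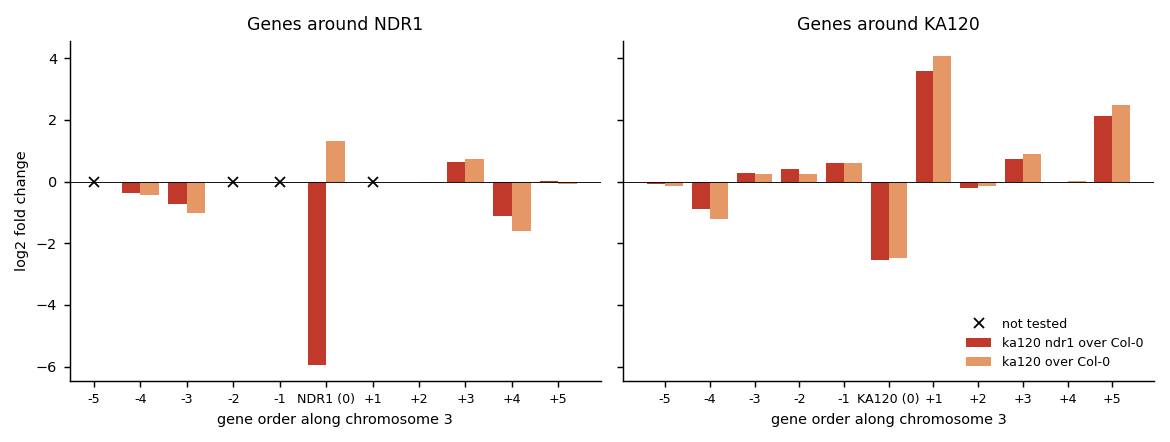
Log2 fold change of ka120 ndr1 over Col-0 (dark bars) and of ka120 over Col-0 (light bars) for the 5 genes on each side of NDR1 and of KA120, in gene order along chromosome 3, with crosses for genes not tested. The bars of NDR1 point in opposite directions, -5.95 in ka120 ndr1 and 1.31 in ka120, and those of KA120 are alike at -2.54 and -2.47.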

How the data were processed

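RNA sequencing of untreated rosette leaves gave 12 libraries, 3 for each of 4 genotypes, grouped by their labels. The deposited table holds whole-number values for 34262 genes, treated here as estimated counts. Of the values from 4 to 40, 45.7% to 48.1% are multiples of 4, against 25% by chance. Counts are therefore not all single fragments, and the precision they give is likely overstated. The reason for the excess was not tested. A second deposited table holds log2 values, which equal the log2 of count plus 0.5 less a constant per library. HISAT2 2.0.4, HTSeq 0.6.1p1 and TAIR10 are named per the submitters' processing notes; their roles and the strand setting were not given there. Gene symbols were matched for 32548 identifiers to RefSeq TAIR10.1, and 1714 had no match.

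Counts were filtered with filterByExpr (22351 genes), scaled by TMM and tested with edgeR 4.0.16 (quasi-likelihood F test, 1 coefficient per genotype, all 12 libraries, 8 residual degrees of freedom, Benjamini-Hochberg adjusted p under 0.05) in R 4.3.3. Standard errors were approximated by dividing each log2 fold change by the root of its F statistic. The procedure was tested on simulated data. Alternatives used DESeq2 1.42.0, limma 3.58.1 on the log2 values, other scalings and filters, a replicate block and each library left out; scaling by total counts was added after seeing the data. A gene at 0 in all Col-0 libraries was set to 3 counts per library.

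Genes were named by rule: the mutated loci and PAD4, the 12 largest called changes per direction with a symbol, non-overlapping libraries and at least 5 CPM, 3 per list with the largest change, 5 per direction against ka120, and 5 neighbours each side of NDR1 and KA120. The genes named against ka120 had also to be called against Col-0. Other list members are given as examples chosen after their values were seen. The comparison and the lists were chosen with earlier results of these data known. Motifs were searched on both strands in 300 bases before each gene start: TTGAC (W box core), TGACG (TGA core, which can overlap the W box core), CACGTG (G box), CCGAC (DREB core), TGACGTG (read by ER stress factors, contains the TGA core), AAATATCT (evening element) and a spaced pattern of CCAAT and CCACG. That pattern was meant for the ER stress response element, whose usual spacing it may not match. Some items withheld for evaluation are not reported here.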

Additional observations from a re-analysis of the deposited data

How the results depend on the processing

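Against Col-0, leaving out 1 library at a time gave 4874 to 5055 higher and 4612 to 4707 lower genes. Total count scaling, added after seeing the data, gave 10128 higher and 2678 lower genes, with 749 lower by at least 2-fold, and for ka120 against Col-0 it gave 10754, 3091 and 861; 79.09% of calls were then higher in ka120 ndr1, against 51.45% with TMM. Every other setting stayed within 1.5 times for these counts. The direct test against ka120 was far less stable: leaving out single libraries gave 47 to 1249 higher and 89 to 983 lower genes, and 8 to 82 and 32 to 266 by at least 2-fold. DESeq2 gave 1312 higher and 1264 lower, with 75 and 314 by at least 2-fold, reference gene scaling gave 387 lower, and counts divided by 4 gave 272 lower by at least 2-fold; the cause was not tested. Of 107 named genes followed over 17 settings, 96 kept direction and call, 9 lost the call in at least 1 setting, bHLH39 gained it with DESeq2, and KCS6 turned to 0.0193 with total counts (adjusted p = 0.833). Samples sharing a replicate number were not shown to be paired: deviations of ka120 ndr1 and Col-0 libraries correlated at 0.0215 to 0.032 for the same number, each highest with its own number, and at -0.0226 to -0.0068 for different numbers, and the replicate block gave 5519 higher and 5228 lower genes. At low levels, many counts are multiples of 4, which limits what can be told apart.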

Other observations

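Some transcripts differed at least 8-fold between libraries of a single genotype while reaching 20 CPM in the highest, 10 genes in ka120 ndr1, 17 in ka120, 16 in ka120 pad4 and 15 in Col-0. SLP2 had 0, 25.8 and 0 CPM in ka120 ndr1, against 0, 0 and 21.8 CPM in Col-0. RAV2 had 2.96, 48.8 and 48.9 CPM in ka120 ndr1, against 13.3, 3.67 and 63.6 CPM in Col-0. AT1G13360 ran from 0.348 to 48.1 CPM among the ka120 ndr1 libraries and from 0.411 to 56 CPM among the Col-0 libraries. Of the genes named above, GT72B1 took both a high and a low level within ka120 pad4, at 90.2, 2.54 and 104 CPM, and within ka120, at 73, 2.15 and 2.07 CPM.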
